A study of Homo sapiens with 9 samples.

Results

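Antisense transcripts that carry the name of a gene on the opposite strand were followed in HNT34 cells after knockdown of EVI1. They were taken as every row of the count table whose symbol ends in -AS and a number and whose part before that ending is also a row, with names starting SNHG or MIR left out. Of 16612 rows, 371 had such a symbol, 54 of these had no sense gene in the table and 1 was left out by name. The remaining 316 antisense transcripts belong to 313 sense genes, since 3 sense genes (CACNA1C, PTOV1 and SEMA6A) have 2 each.

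HNT34 is an established human acute myeloid leukemia line that overexpresses EVI1, a zinc finger transcription factor encoded by MECOM. Cells transduced with a control shRNA that has no target (NT), with sh#16 or with sh#87, both directed at EVI1, were selected, and their polyA RNA was sequenced 3 days later in 3 libraries per group. One field of the labels gives the sh#87 libraries another shRNA number, and they were grouped by their titles. All groups share the line and the shRNA transduction, and in these libraries each shRNA was tested in this line alone. Nothing in the sources used here says that the libraries of a group came from separate cultures. The p-values therefore measure the spread between these libraries, which may be technical. This spread was unequal: the chi-square per gene between 2 libraries of a group was 54.2 to 291 in NT. It was 2.39 to 5.36 with sh#16 and 6.45 to 9.83 with sh#87. All 9 libraries share 1 estimate of the spread in the fit, so the larger differences within NT enter each of its p-values.

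A natural antisense transcript is read from the strand opposite to a gene and is usually a long noncoding RNA. It can start at the same promoter region and run away from the gene (head to head), meet the gene at its 3′ end (tail to tail), or lie inside it. Some antisense transcripts act on their neighbour or elsewhere in the cell, and for many no function is known. The level of an antisense transcript and that of its gene are therefore separate measurements, and the question put to the data was how each changed beside the other.

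The libraries held 17096170 to 43502389 counts. MECOM was at 571.3, 503.9 and 440.5 CPM (counts scaled to library size by TMM) in NT, at 145.4, 142.8 and 145.2 CPM with sh#16 and at 109.2, 107.1 and 105.8 CPM with sh#87, so that every knockdown library lay below every NT library (2-sided exact permutation test of 6 against 3 libraries, p = 0.0119, the smallest this design allows). Mitochondrially encoded genes took 4.69% to 15.9% of the counts in NT, 2.69% to 2.88% with sh#16 and 4.62% to 5.97% with sh#87. With these genes left out of the fit, 165 antisense transcripts were called with sh#16 and 193 with sh#87, beside 164 and 193 with them. Of the markers of this line, CD34 went from 668 to 769 CPM in NT to 114 to 118 CPM with sh#16 and 41.2 to 43.5 CPM with sh#87, PTPRC from 821 to 895 CPM to 137 to 148 and 96.4 to 103 CPM and KIT from 84.8 to 87.8 CPM to 33.2 to 34.9 and 26.7 to 28.3 CPM. CD33 was at 40.0 to 44.5 CPM in NT, 37.1 to 39.3 CPM with sh#16 and 33.1 to 36.2 CPM with sh#87, and ANPEP was at 217 to 301 CPM in NT, at 278 to 288 CPM with sh#16, where it overlapped NT, and at 137 to 143 CPM with sh#87. MPO and CD38, also listed as markers of this line, had no row in the count table. Of the markers of other cells reported here, the fibroblast collagen COL1A1 went from 0.0434 to 0.172 CPM in NT to 25.9 to 30.3 CPM in the knockdown libraries, the T cell marker CD3E was at 7.14 to 10.1 CPM in NT and 2.64 to 5.26 CPM in the knockdown libraries and the epithelial keratin KRT18 was at 84.2 to 97.9 and 53.1 to 81.3 CPM. The part of these markers in the results was not tested.

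In the GENCODE annotation 309 of the 316 pairs could be placed, and in all of them the partners lie on opposite strands of 1 chromosome. The commonest arrangement was head to head with overlap, in 141 pairs, followed by tail to tail with overlap in 59, the antisense inside the sense gene in 48, head to head without overlap in 39 and the sense gene inside the antisense in 20. The nearest annotated starts of the partners were a median of 147 bases apart and within 1 kb in 224 pairs. Exons of the partners overlapped in 234 pairs, by a median of 314 bases. The library kit marks the strand, but the strand setting of the counting is not given in the sources used here, so in overlapping exons reads of an antisense transcript and of its gene may not be told apart. RefSeq now lists 20 of the antisense transcripts under another symbol, of which 19 end in -DT, for divergent transcript.

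RefSeq promoter windows (GRCh38.p14, 250 bases before to 50 bases after a start) were given for 247 of the antisense transcripts, with 291 windows in all. CG dinucleotides numbered a median of 24 per antisense window and 24 per window of the sense genes, against 14 over all 35116 windows. On either strand, the ETS motif CCGGAAG was in 15.1% of the antisense windows, 13.5% of the sense gene windows and 10.3% of all windows. In the same order, the GATA core AGATAA was in 5.84%, 5.3% and 10.3%, and the E-box CACGTG in 8.59%, 9.63% and 7.26%. The CCAAT box was in 29.5%, 33.3% and 34.6%, and the TATA box TATAAA in 6.87%, 8.03% and 11.5%. These matches describe the letters in the windows only. In 225 pairs with windows for both partners, the nearest RefSeq starts lay within 250 bases in 89.

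The windows of 6 antisense transcripts are shown because 1 stretch of DNA holds a start of each partner while the partners' changes differ from pair to pair. Where a partner has several RefSeq starts, those nearest to the other partner were used, which need not be the outermost starts. Each is read 5′ to 3′ on the antisense strand, and capitals mark the stretch from the start of the sense gene, which is transcribed leftwards, to the start of the antisense transcript. NQO2-AS1 (chr6:2999626-2999925, minus strand, starts 219 bases apart) stands for pairs in which both partners rose, and RFX5-AS1 (chr1:151346760-151347059, plus strand, 11 bases) and ZEB1-AS1 (chr10:31320398-31320697, minus strand, 107 bases) for pairs in which both fell. ZBED5-AS1 (chr11:10857967-10858266, plus strand, 164 bases) rose while its gene fell. NARF-AS2 (chr17:82458470-82458769, minus strand, 145 bases) fell while its gene rose. FOXP4-AS1 (chr6:41546194-41546493, minus strand, 138 bases) fell while its gene did not pass the test. Of the motifs named above, only the CCAAT box, in NARF-AS2 and ZBED5-AS1, and AGATAA, in ZBED5-AS1, occur in these 6 windows.
NQO2-AS1: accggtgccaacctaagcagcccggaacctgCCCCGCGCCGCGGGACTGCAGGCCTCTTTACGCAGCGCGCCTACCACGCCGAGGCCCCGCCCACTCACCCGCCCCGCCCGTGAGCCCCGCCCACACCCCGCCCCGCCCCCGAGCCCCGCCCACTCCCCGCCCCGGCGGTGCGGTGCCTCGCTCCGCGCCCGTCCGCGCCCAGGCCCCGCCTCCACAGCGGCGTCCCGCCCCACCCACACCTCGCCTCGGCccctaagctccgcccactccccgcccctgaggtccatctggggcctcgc
RFX5-AS1: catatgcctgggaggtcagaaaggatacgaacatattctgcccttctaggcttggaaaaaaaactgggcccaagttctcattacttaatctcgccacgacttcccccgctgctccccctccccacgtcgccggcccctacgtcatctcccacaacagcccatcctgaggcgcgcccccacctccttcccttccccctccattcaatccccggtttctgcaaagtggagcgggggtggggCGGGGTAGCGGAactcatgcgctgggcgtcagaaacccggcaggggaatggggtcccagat
ZEB1-AS1: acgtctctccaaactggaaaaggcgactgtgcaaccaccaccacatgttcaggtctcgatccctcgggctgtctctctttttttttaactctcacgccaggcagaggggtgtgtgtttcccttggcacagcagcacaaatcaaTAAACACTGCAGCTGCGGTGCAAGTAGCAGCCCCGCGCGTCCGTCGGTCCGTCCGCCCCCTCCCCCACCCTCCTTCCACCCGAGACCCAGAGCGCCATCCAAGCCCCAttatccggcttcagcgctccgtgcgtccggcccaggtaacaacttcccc
ZBED5-AS1: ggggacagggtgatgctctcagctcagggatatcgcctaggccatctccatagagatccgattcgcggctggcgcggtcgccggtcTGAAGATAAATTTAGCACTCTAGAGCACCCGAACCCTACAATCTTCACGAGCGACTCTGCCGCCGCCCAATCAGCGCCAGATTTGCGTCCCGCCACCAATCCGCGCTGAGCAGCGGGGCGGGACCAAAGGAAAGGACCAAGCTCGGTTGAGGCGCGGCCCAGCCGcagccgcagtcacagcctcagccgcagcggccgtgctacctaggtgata
NARF-AS2: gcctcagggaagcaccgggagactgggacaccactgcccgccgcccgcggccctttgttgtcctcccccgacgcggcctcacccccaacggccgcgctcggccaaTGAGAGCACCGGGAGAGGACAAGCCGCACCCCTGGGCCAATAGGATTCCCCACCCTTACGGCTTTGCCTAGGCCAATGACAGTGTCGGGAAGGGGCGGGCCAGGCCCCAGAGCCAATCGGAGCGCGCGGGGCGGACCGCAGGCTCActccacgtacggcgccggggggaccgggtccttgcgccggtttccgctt
FOXP4-AS1: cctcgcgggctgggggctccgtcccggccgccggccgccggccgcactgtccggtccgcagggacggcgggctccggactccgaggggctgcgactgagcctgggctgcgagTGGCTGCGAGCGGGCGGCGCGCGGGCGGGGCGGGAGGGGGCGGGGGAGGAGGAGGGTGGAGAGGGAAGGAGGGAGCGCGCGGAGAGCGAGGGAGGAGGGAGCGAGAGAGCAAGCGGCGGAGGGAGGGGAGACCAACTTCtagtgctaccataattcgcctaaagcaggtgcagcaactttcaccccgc

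Most antisense transcripts were scarce beside their genes. Their mean level over the 9 libraries had a median of 2.5 CPM, with quartiles of 0.776 and 8.46 CPM and a range from 0.195 to 273 CPM, while the sense genes had a median of 46.2 CPM. Only 69 antisense transcripts averaged at least 10 CPM, and 96 averaged under 1 CPM. Per length of annotated exons, the antisense level was a median of 11.2% of the sense level over 309 pairs, was under 10% in 147 and exceeded the sense level in 37. The summed level of all 316 was 2995 to 3477 CPM in NT, 2234 to 2284 CPM with sh#16 and 2614 to 2711 CPM with sh#87, and on this TMM scale the groups did not overlap. As a share of the unscaled counts it was 0.280% to 0.287% in NT, 0.238% to 0.247% with sh#16 and 0.276% to 0.2925% with sh#87. By this share sh#87 overlapped NT, while sh#16 was lowest on both scales. The unscaled counts include the mitochondrially encoded ones, 4.69% to 15.9% in NT, 2.69% to 2.88% with sh#16 and 4.62% to 5.97% with sh#87. A share without these was not computed. In such bulk RNA, fewer cells with a transcript and less of it per cell cannot be told apart.

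After the filter on low counts, 305 antisense transcripts, 311 sense genes and 303 whole pairs were tested. A gene is called here at an adjusted p of at most 0.01, from edgeR's quasi-likelihood test with Benjamini-Hochberg adjustment over 16312 genes, and changes are log2 fold changes ± SE. With sh#16, 164 antisense transcripts were called, of which 63 were higher and 101 lower than in NT. Over all genes tested, 60.0% were called, 29.8% higher and 30.2% lower. With sh#87, 193 were called, 92 higher and 101 lower, beside 67.9% of all genes, 34.3% higher and 33.6% lower. The members' shares of calls, 53.8% and 63.3%, therefore lay below those of all genes. Many members were scarce, 96 of them averaging under 1 CPM, and few counts make a call less likely. The part of level in these shares was not tested. A change of at least 2 on the log2 scale was called in 49 with sh#16, 16.1% of the members against 12.8% of all genes. With sh#87 it was called in 59, 19.3% of the members against 18.9% of all genes. At this threshold the members' shares thus did not lie below those of all genes.

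The sense genes leaned further towards lower levels. With sh#16, 73 of 311 were called higher and 142 lower, and with sh#87, 76 and 152. The median change was -0.34 with sh#16 and -0.41 with sh#87 over the sense genes, -0.24 and 0.07 over the antisense transcripts, and 0.04 and 0.04 over all genes. Among the tested pairs, 60 antisense transcripts were called higher and 86 lower with each shRNA, while over all genes 26.7% were called higher and 27.5% lower with each. The comparisons of both shRNAs share the NT libraries.

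Within pairs, calls in 1 direction, in opposite directions and in 1 partner alone all occurred. Among the tested pairs, 20.5% of antisense transcripts were called higher and 33.3% lower with sh#16, against 23.1% and 46.2% of sense genes. With sh#87 these shares were 30.0% and 33.3%, against 24.1% and 49.5%. Whether the pair counts differ from those of unrelated partners with such shares was not tested, nor was the part of the lower levels of the antisense transcripts. With sh#16, 70 of 303 pairs had both partners called in 1 direction (19 both higher, 51 both lower) and 43 had them called in opposite directions (25 with the antisense higher, 18 with it lower). In 50 only the antisense was called, in 97 only the sense gene, and in 43 neither. With sh#87, 85 pairs had calls in 1 direction (26 both higher, 59 both lower), 56 had opposite calls (35 with the antisense higher, 21 with it lower), 51 had the antisense alone, 82 the sense gene alone and 29 neither. Across the 303 pairs, which are not independent replicates and share their libraries, Pearson's r between the changes of antisense and sense was 0.14 with sh#16 and 0.16 with sh#87.

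**Figure D1:**
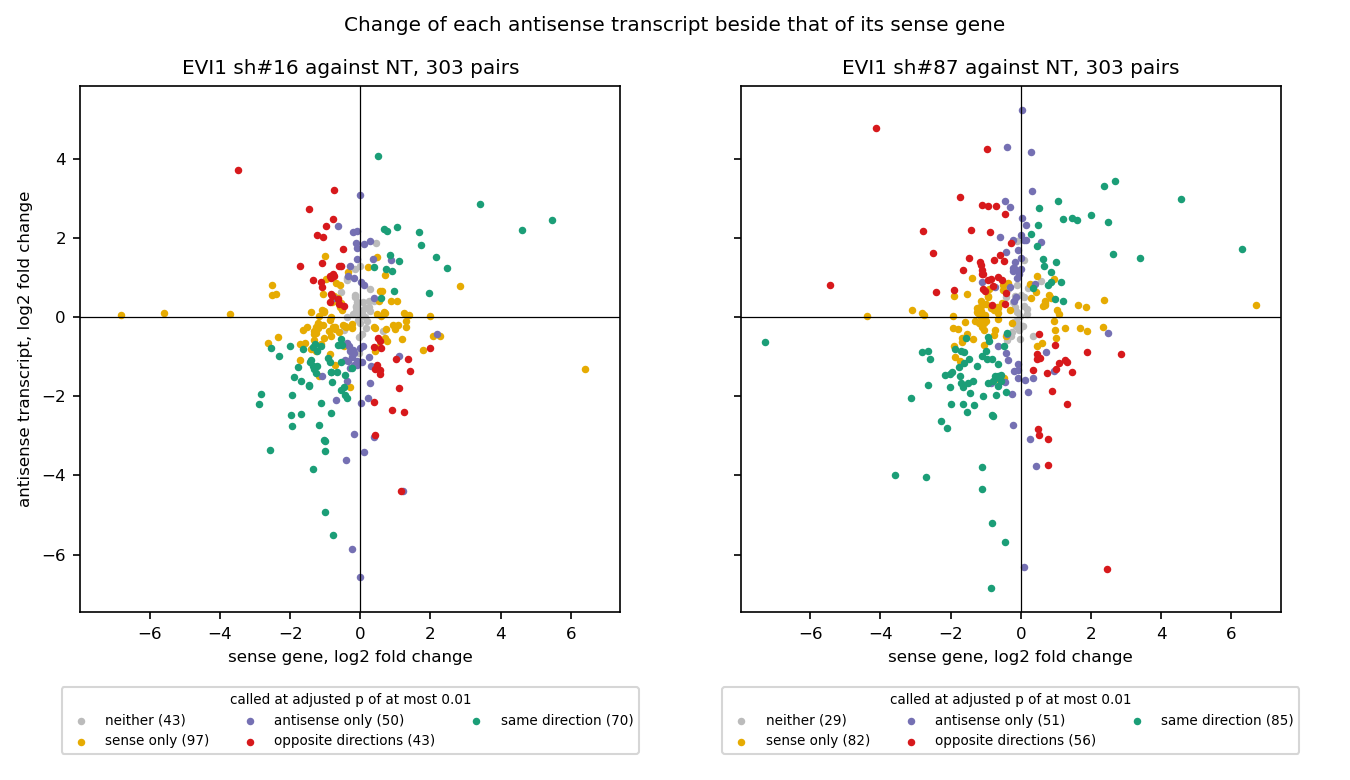
Log2 fold change of each antisense transcript (vertical axis) against that of its sense gene (horizontal axis) for 303 pairs, with EVI1 sh#16 on the left and EVI1 sh#87 on the right, each against NT; colours give which partner was called at an adjusted p of at most 0.01. Points with opposite calls (43 with sh#16, 56 with sh#87) lie at the upper left and lower right, beside the 70 and 85 pairs called in 1 direction.

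The pairs were also divided by the distance between starts. Where the nearest starts lay within 1 kb, 54 of 214 pairs were called in 1 direction and 29 in opposite directions with sh#16, and 67 and 37 with sh#87, with r of 0.22 and 0.26 across pairs. Where these lay further apart, 16 of 82 pairs were called in 1 direction and 12 in opposite directions with sh#16, and 18 and 17 with sh#87, with r of 0.02 and -0.02. The difference between the distance classes was not tested. Pairs with overlapping exons (221) had 50 calls in 1 direction and 32 in opposite directions with sh#16, and the 75 without overlap had 20 and 9. With sh#87 the counts were 58 and 41 with overlap, and 27 and 13 without.

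**Figure D2:**
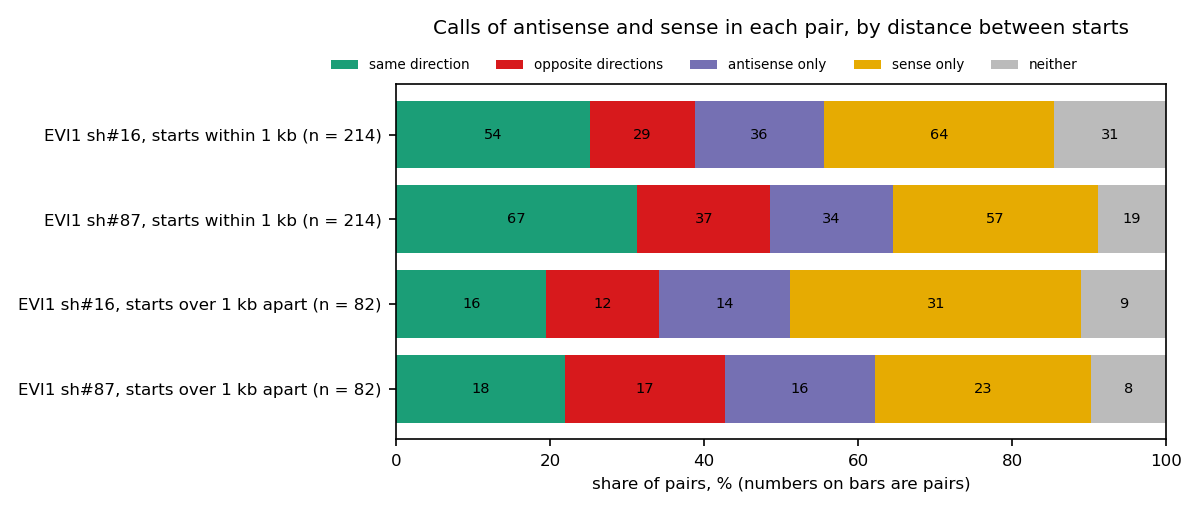
Share of pairs (horizontal axis, %) by which partners were called, for each shRNA against NT and for pairs whose nearest starts lay within 1 kb (214 pairs) or further apart (82 pairs); the numbers on the bars are pairs. With sh#87, calls in 1 direction number 67 of 214 pairs with near starts and 18 of 82 with distant ones.

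With each shRNA, 18 pairs had both partners higher, 44 had both lower, 22 had the antisense higher and the sense gene lower, and 13 the reverse. In 33 pairs the antisense was called with each shRNA and the sense gene with neither (16 higher, 17 lower). In 64 the sense gene was called with each shRNA and the antisense with neither (22 higher, 42 lower). Among the tested pairs, the antisense was called higher in 60 and lower in 86 with each shRNA. The sense gene was called higher in 63 and lower in 131. Whether the pair counts differ from those of unrelated partners was not tested.

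The most abundant antisense transcript was OIP5-AS1 (chr15:41282697-41313338, plus strand), a conserved long noncoding RNA that runs tail to tail into OIP5, a gene for a centromere protein. It stood at 472, 443 and 402 CPM in NT, 216, 207 and 207 CPM with sh#16 and 160.8, 173 and 177 CPM with sh#87. The knockdown libraries all lay below NT, and the changes were -1.06 ± 0.07 (adjusted p = 2.2e-06) and -1.37 ± 0.07 (adjusted p = 3.2e-07). OIP5 itself was scarce, at 1.81, 2.08 and 4.0 CPM in NT, 5.66, 6.89 and 8.05 CPM with sh#16 and 5.53, 5.59 and 4.27 CPM with sh#87. It was called higher with sh#16 (1.36 ± 0.29, adjusted p = 0.0022, and 0.011 without NT replicate 2), while the change with sh#87 was 0.95 ± 0.29 (adjusted p = 0.014).

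THAP9-AS1 and TMEM161B-AS1, which start head to head with their genes, also fell while the genes rose. THAP9-AS1 was at 208.9, 184.1 and 161.5 CPM in NT, 82.5, 77.8 and 80.0 CPM with sh#16 and 87.7, 91.1 and 94.7 CPM with sh#87. THAP9, a gene derived from a transposase, was at 7.71 to 8.82 CPM in NT, 10.5 to 12.3 CPM with sh#16 and 11.1 to 12.8 CPM with sh#87. The antisense fell by 1.21 ± 0.09 and 1.02 ± 0.09 on the log2 scale while the gene rose by 0.49 ± 0.10 and 0.55 ± 0.10. The call of THAP9 with sh#16 (adjusted p = 0.0023) was lost without NT replicate 2 (0.011) and without sh#16 replicate 1 (0.012).

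TMEM161B-AS1 (chr5:88268882-88436674, plus strand) was at 144, 133 and 99.9 CPM in NT, 51.5, 48.1 and 51.0 CPM with sh#16 and 44.8, 47.3 and 49.5 CPM with sh#87. TMEM161B, a membrane protein gene, was at 30.9 to 32.3 CPM in NT, 43.9 to 49.0 CPM with sh#16 and 52.0 to 54.4 CPM with sh#87. The antisense thus changed from above its gene in every NT library to within 5 CPM of it in the sh#16 libraries and below it in every sh#87 library. Its changes were -1.32 ± 0.12 and -1.41 ± 0.13 (adjusted p = 1.5e-05 and 6.8e-06), against 0.56 ± 0.07 and 0.75 ± 0.07 for the gene. The log2 ratio of antisense to sense CPM went from 1.97 ± 0.30 in NT to 0.11 ± 0.04 with sh#16 and -0.18 ± 0.04 with sh#87 (SD, n = 3 each; exact permutation p = 0.0119).

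GABPB1-AS1 (chr15:50354174-50358312, plus strand) separated the shRNAs. GABPB1, the beta subunit of the ETS factor GABP, was at 97.4, 80.0 and 73.2 CPM in NT, 21.7, 19.9 and 20.7 CPM with sh#16 and 13.2, 11.5 and 12.1 CPM with sh#87. Both shRNAs gave lower levels than any NT library, by -2.01 ± 0.11 and -2.77 ± 0.12 (adjusted p = 6.5e-07 and 8.4e-08). GABPB1-AS1 was at 85.8, 78.6 and 68.9 CPM in NT, 47.6, 46.0 and 47.7 CPM with sh#16 and 78.8, 79.6 and 83.1 CPM with sh#87. It was lower with sh#16 (-0.72 ± 0.08, adjusted p = 4.9e-05) and overlapped NT with sh#87 (0.05 ± 0.08, adjusted p = 0.59), and the difference between the shRNAs passed the test (0.77 ± 0.08, adjusted p = 3.3e-04). Across the 13 pairs named for abundance or as blood transcription factors, the log2 ratio of antisense to sense was tested. These tests took the libraries of both shRNAs together against NT, and their p-values are not adjusted over the pairs. For the GABPB1 pair the ratio went from -0.10 ± 0.08 in NT to 1.18 ± 0.04 with sh#16 and 2.71 ± 0.12 with sh#87 (SD, n = 3 each; exact permutation p = 0.0238).

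NUTM2A-AS1 and PSMA3-AS1 complete the 6 most abundant. NUTM2A-AS1 went from 97.6 to 116 CPM in NT to 78.4 to 84.5 CPM with sh#16 and 80.5 to 85.7 CPM with sh#87, changes of -0.42 ± 0.08 and -0.39 ± 0.08 (adjusted p = 8.9e-04 and 0.0011), and NUTM2A was at 0.129, 0.173 and 2.13 CPM in NT against 3.34 to 5.68 CPM in the knockdown libraries (adjusted p = 0.019 and 0.010, neither past the threshold). PSMA3-AS1 was lower with sh#16 (-0.76 ± 0.14, adjusted p = 8.7e-04), with 60.7 to 93.3 CPM in NT and 43.5 to 48.8 CPM with sh#16, and overlapped NT with sh#87, at 59.6 to 63.5 CPM. PSMA3, a subunit of the proteasome core, was called higher with sh#16 (0.38 ± 0.10, adjusted p = 0.0082), a call lost without any 1 library other than NT replicate 3 (adjusted p from 0.012 to 0.036). The exact permutation p of the PSMA3 pair's ratio was 0.0833.

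**Figure D3:**
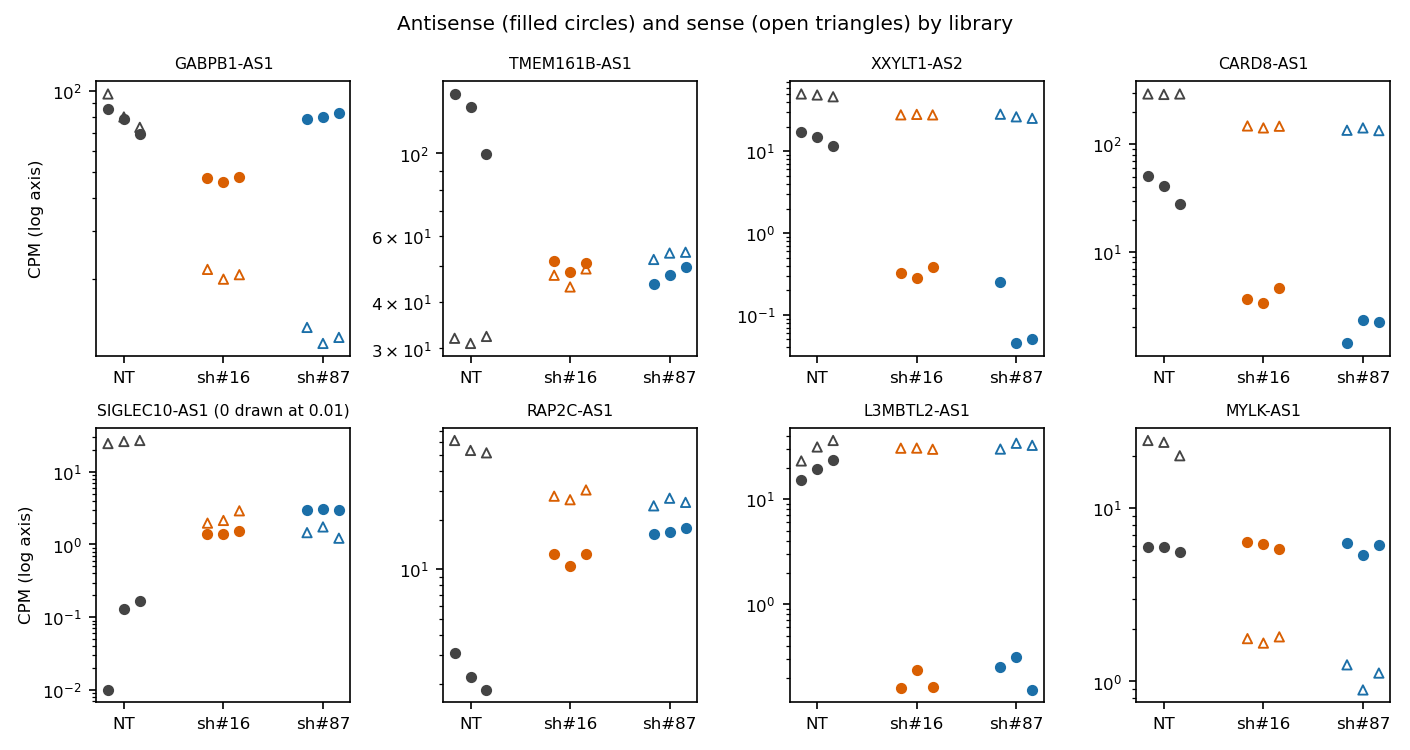
CPM (log axis) of 8 antisense transcripts (filled circles) and their sense genes (open triangles) in each of the 3 NT, 3 sh#16 and 3 sh#87 libraries; a value of 0 is drawn at 0.01. GABPB1-AS1 stays at 78.8 to 83.1 CPM with sh#87 while GABPB1 lies at 11.5 to 13.2 CPM, and L3MBTL2-AS1 lies under 0.4 CPM in all knockdown libraries while L3MBTL2 stays at 29.9 to 34.1 CPM.

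The pairs described next were chosen by their calls, so their directions are a description. Among pairs called lower in both partners with each shRNA and with an antisense mean of at least 1 CPM in its highest group, those whose antisense fell furthest, by the change nearer to 0, were XXYLT1, RNASEH2B, CARD8, EPHA1 and RFX5. The genes of these pairs were not ranked. XXYLT1-AS2 (chr3:195147871-195152856, plus strand) lies inside XXYLT1, which encodes a xylosyltransferase. It was at 17.03, 14.8 and 11.7 CPM in NT, 0.321, 0.281 and 0.383 CPM with sh#16 and 0.249, 0.0447 and 0.0508 CPM with sh#87, where the last pair of values are 1 count each. The change with sh#16 was -5.49 ± 0.31 (adjusted p = 6.7e-07), while XXYLT1 went from 46.6 to 50.4 CPM in NT to 27.9 to 28.3 CPM with sh#16, a change of -0.79 ± 0.07.

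CARD8-AS1 (chr19:48255675-48258194, plus strand) starts head to head with CARD8, an inflammasome sensor, and the exons of the pair share 3 bases. It went from 50.7, 41.2 and 28.0 CPM in NT to 3.69, 3.37 and 4.60 CPM with sh#16 and 1.41, 2.32 and 2.24 CPM with sh#87, changes of -3.38 ± 0.25 and -4.33 ± 0.27 (adjusted p = 3.5e-06 and 7.9e-07). CARD8 went from 290 to 294 CPM in NT to 142 to 148 CPM with sh#16 and 134 to 142 CPM with sh#87, changes of -1.005 ± 0.053 and -1.09 ± 0.05. The antisense thus fell further than its gene in both comparisons, and the groups did not overlap for either partner.

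RNASEH2B-AS1, beside the gene of an RNase H2 subunit, was at 5.46, 3.81 and 3.04 CPM in NT and at 1 to 8 counts in the knockdown libraries. With sh#87 all libraries held at most 3 counts, so that it was at least 26.9-fold lower than the NT mean (3 counts in the shallowest sh#87 library being 0.153 CPM). RNASEH2B changed by -1.02 ± 0.06 and -0.82 ± 0.06. RFX5-AS1 starts 11 bases from the nearest RefSeq start of RFX5, a regulator of MHC class II genes. This antisense was at 1.38, 0.824 and 1.10 CPM in NT and at least 7.21-fold lower with sh#87, while RFX5 changed by -1.003 ± 0.068 and -1.09 ± 0.07. EPHA1-AS1 went from 6.71 to 8.86 CPM in NT to 0.603 to 0.908 CPM with sh#16 and 0.407 to 0.581 CPM with sh#87, and EPHA1, an ephrin receptor, from 9.63 to 17.5 CPM to 2.01 to 2.40 CPM and 0.804 to 1.33 CPM (-3.35 ± 0.20 and -2.58 ± 0.25 with sh#16).

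Among pairs called higher in both partners, the antisense transcripts that rose furthest by the same measure and with the same minimum, EXOC3-AS1, ATP2A1-AS1, A1BG-AS1, TMEM139-AS1 and NQO2-AS1, averaged under 2 CPM in NT, while the levels of their genes varied. EXOC3-AS1 was at 0.817, 0.91 and 1.97 CPM in NT, 5.78, 6.01 and 5.97 CPM with sh#16 and 10.3, 8.98 and 9.81 CPM with sh#87, changes of 2.23 ± 0.27 and 2.94 ± 0.27 (adjusted p = 7.9e-05 and 9.5e-06). EXOC3, a subunit of the exocyst, rose from 51.5 to 63.0 CPM to 88.7 to 92.8 CPM and 112 to 124 CPM. ATP2A1-AS1 rose from 0.737 to 0.774 CPM in NT to 3.09 to 4.62 CPM with sh#16 and 3.66 to 4.28 CPM with sh#87, and ATP2A1, a calcium pump of the sarcoplasmic reticulum, from 1.03 to 2.44 CPM to 3.07 to 3.77 CPM and 8.28 to 10.6 CPM. The call of ATP2A1 with sh#16 (adjusted p = 0.0061) was lost without NT replicate 2, without any sh#16 library and without sh#87 replicate 2 or 3 (adjusted p from 0.010 to 0.025).

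A1BG-AS1 rose from 0.516, 0.694 and 1.001 CPM in NT to 5.04 to 6.10 CPM with sh#16 and 7.24 to 9.07 CPM with sh#87 (2.87 ± 0.22 and 3.45 ± 0.22). Its gene A1BG, for a plasma glycoprotein, had 0, 0 and 4 counts in NT and 6 to 31 counts in the knockdown libraries, and its call with sh#87 (adjusted p = 0.0093) was lost when any 1 library other than NT replicate 3 was left out (adjusted p up to 0.032). TMEM139-AS1 rose from 0.215 to 0.467 CPM to 1.32 to 2.13 CPM with sh#16 and 2.54 to 3.17 CPM with sh#87, and TMEM139, at 0, 1 and 0 counts in NT, was at least 3.33-fold and 3.25-fold higher with the shRNAs. NQO2-AS1 had 1 to 5 counts in the NT libraries and 11 to 27 counts in the knockdown libraries (2.19 ± 0.39 and 2.76 ± 0.38). NQO2, a quinone reductase that starts 219 bases away in the window shown above, went from 11.04 to 16.6 CPM in NT to 22.0 to 24.4 CPM and 18.2 to 20.5 CPM, and its call with sh#87 (adjusted p = 0.0069) was lost without any 1 library other than NT replicates 1 and 3 (adjusted p up to 0.024).

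In 35 pairs the partners were called in opposite directions with each shRNA. SIGLEC10-AS1 (chr19:51415724-51418197, plus strand) lies largely within SIGLEC10, an inhibitory receptor for sialic acid on leukocytes, and the exons of the pair share 594 bases. The antisense had 0, 3 and 5 counts in NT and stood at 1.41, 1.41 and 1.53 CPM with sh#16 and 2.99, 3.08 and 2.95 CPM with sh#87 (3.73 ± 0.44 and 4.79 ± 0.42, adjusted p = 5.7e-05 and 5.9e-06). SIGLEC10 went the other way, from 24.4, 26.1 and 26.9 CPM in NT to 1.97, 2.14 and 2.90 CPM with sh#16 and 1.46, 1.74 and 1.22 CPM with sh#87 (-3.49 ± 0.16 and -4.12 ± 0.17). With sh#87 the antisense exceeded its gene in every library.

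RAP2C-AS1 (chrX:132218507-132432811, plus strand) rose from 3.10, 2.21 and 1.83 CPM in NT to 12.4, 10.5 and 12.4 CPM with sh#16 and 16.42, 17.03 and 17.79 CPM with sh#87, changes of 2.31 ± 0.17 and 2.85 ± 0.17 (adjusted p = 3.6e-06 and 6.4e-07). RAP2C, a small GTPase of the Ras family, fell from 51.5 to 61.3 CPM to 26.6 to 30.6 CPM and 24.4 to 27.2 CPM (-0.96 ± 0.09 and -1.10 ± 0.09). ZBED5-AS1 rose from 0.91 to 1.77 CPM to 2.74 to 3.53 CPM and 3.12 to 3.799 CPM, while ZBED5, a gene derived from a transposon, fell from 39.9 to 63.4 CPM to 22.5 to 24.6 CPM and 17.7 to 18.1 CPM. These antisense transcripts start head to head with their genes, and no group overlapped NT for either partner.

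The reverse pattern, with the antisense lower and the gene higher, is described for NAPA-AS1, PTOV1-AS1 and NARF-AS2, where the smallest of the 4 changes in a pair was largest among those with an antisense mean of at least 1 CPM in its highest group. Other antisense transcripts of this kind fell further beside a smaller rise of the gene, such as PPP3CB-AS1 (-2.97 and -2.83, with 0.43 and 0.49 for PPP3CB) and BSG-AS1 (-2.36 and -3.09, with 0.89 and 0.77 for BSG). NAPA-AS1 fell from 1.07, 1.69 and 2.20 CPM in NT to 0.281 to 0.329 CPM with sh#16 and 0.203 to 0.541 CPM with sh#87 (-2.40 ± 0.36 and -2.20 ± 0.37), while NAPA, the alpha-SNAP protein of membrane fusion, rose from 29.7, 35.4 and 49.2 CPM to 85.3 to 92.1 CPM and 90.5 to 96.5 CPM. PTOV1-AS1 fell from 2.04 to 2.60 CPM to 0.54 to 0.876 CPM and 0.559 to 1.16 CPM, while PTOV1 rose from 18.6, 27.7 and 39.7 CPM to 57.5 to 66.7 CPM and 70.4 to 84.3 CPM. NARF-AS2 fell from 1.03 to 1.25 CPM to 0.493 to 0.584 CPM and 0.499 to 0.581 CPM, while NARF rose from 25.6 to 34.6 CPM to 58.8 to 60.1 CPM and 69.8 to 75.1 CPM.

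Some antisense transcripts changed beside a gene that was not called. L3MBTL2-AS1 (chr22:41209122-41217627, minus strand) lies inside L3MBTL2, a Polycomb-type chromatin protein, with 1363 bases of exon overlap. It was at 15.2, 19.5 and 23.6 CPM in NT (354 to 709 counts) and at 3 to 11 counts in the knockdown libraries, changes of -6.58 ± 0.27 and -6.30 ± 0.27 (adjusted p = 1.0e-07 and 7.9e-08). L3MBTL2 was at 23.1, 31.4 and 36.3 CPM in NT, 29.9 to 30.7 CPM with sh#16 and 30.0 to 34.1 CPM with sh#87, and its groups overlapped (0.01 ± 0.14 and 0.09 ± 0.14).

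TSPOAP1-AS1 fell from 7.999, 9.75 and 9.87 CPM in NT to 0.602 to 0.951 CPM with sh#16 and 0.873 to 1.22 CPM with sh#87 (-3.61 ± 0.22 and -3.09 ± 0.21), and TSPOAP1 overlapped NT with each shRNA. FOXP4-AS1 fell from 2.15, 2.3 and 1.301 CPM to 0.161 to 0.303 CPM and 0.0894 to 0.166 CPM (-3.04 ± 0.34 and -3.76 ± 0.39), that is, from 39 to 53 counts to 2 to 14 counts. FOXP4, a forkhead factor, was at 55.8, 80.5 and 90.0 CPM in NT and 94.5 to 110 CPM in the knockdown libraries, which lay above NT without passing the test (adjusted p = 0.043 and 0.028).

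RNF213-AS1 rose with both shRNAs and by more with sh#87. It was at 0.473, 0.13 and 0.133 CPM in NT (3 to 11 counts), 2.13, 1.99 and 2.14 CPM with sh#16 and 9.02, 8.76 and 9.81 CPM with sh#87 (3.10 ± 0.35 and 5.24 ± 0.33, adjusted p = 4.6e-05 and 7.8e-07). The 3 groups did not overlap, and sh#87 exceeded sh#16 by 2.14 ± 0.25 (adjusted p = 4.9e-04). RNF213, a large ubiquitin ligase whose exons share 1043 bases with the antisense, stayed between 352 and 396 CPM in all libraries.

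The reverse, a gene called with each shRNA by at least 2 on the log2 scale beside an antisense called with neither, was seen in 4 pairs. In FAS, which went from a mean of 21.6 CPM in NT to 3.53 and 3.05 CPM, and in RUNDC3A, which went from 0.0542 to 4.80 and 6.004 CPM, the antisense averaged under 1 CPM in every group. The others were MYLK and PRKAR1B. MYLK-AS1 was at 5.98, 5.98 and 5.57 CPM in NT, 6.38, 6.22 and 5.81 CPM with sh#16 and 6.28, 5.36 and 6.15 CPM with sh#87, with changes of 0.07 ± 0.11 and 0.02 ± 0.11. MYLK, the myosin light chain kinase, fell from 24.5, 23.9 and 19.98 CPM to 1.66 to 1.81 CPM and 0.894 to 1.25 CPM (-3.71 ± 0.14 and -4.38 ± 0.15, adjusted p = 7.4e-08 and 2.5e-08). The antisense was therefore below its gene in every NT library and above it in every knockdown library. PRKAR1B-AS1 was at 1.25 to 1.95 CPM in NT and 1.61 to 2.57 CPM in the knockdown libraries (adjusted p = 0.033 and 0.45), while PRKAR1B, a regulatory subunit of protein kinase A, fell from 9.55 to 15.6 CPM to 1.70 to 2.55 CPM and 1.12 to 1.68 CPM.

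Of the pairs tested, 7 belong to transcription factors of blood cells. In 6 of 7 the antisense was called lower with each shRNA, with median changes of -0.97 and -1.10, and 5 of 7 sense genes were called lower with each, with medians of -1.65 and -1.88. Over all genes, 27.5% were called lower with each shRNA. The list, like those that follow, was chosen with earlier results of these data known, so its counts are a description. In ZEB1, LEF1, MEF2C and KLF3 both partners fell. ZEB1-AS1 was at 26.9, 24.5 and 22.4 CPM in NT, 14.5, 13.9 and 14.8 CPM with sh#16 and 12.6, 13.6 and 13.7 CPM with sh#87 (-0.77 ± 0.09 and -0.89 ± 0.09), while ZEB1, a zinc finger repressor, fell from 553, 451 and 334 CPM to 74.8 to 79.3 CPM and 59.3 to 67.4 CPM (-2.54 ± 0.16 and -2.83 ± 0.17). The gene fell further than its antisense, and the log2 ratio rose from -4.15 ± 0.23 in NT to -2.40 ± 0.06 and -2.23 ± 0.10 (SD, n = 3 each; exact permutation p = 0.0119).

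LEF1 and MEF2C showed the same order. LEF1-AS1 fell from 1.08 to 1.38 CPM to 0.605 to 0.682 CPM with sh#16 and 0.492 to 0.707 CPM with sh#87 (-0.97 ± 0.20 and -1.06 ± 0.21, the former with an adjusted p of 0.0021, and 0.014 without sh#16 replicate 2), while LEF1, an effector of Wnt signalling, fell from 24.1 to 28.9 CPM to 5.09 to 5.74 CPM and 3.75 to 4.91 CPM. MEF2C-AS1 fell by 0.80 ± 0.16 with each shRNA on the log2 scale, and MEF2C, a MADS-box factor, fell by 1.65 ± 0.11 and 1.88 ± 0.11. KLF3-AS1 was scarce, at 0.903, 1.65 and 1.97 CPM in NT and 0.11 to 0.432 CPM in the knockdown libraries, and KLF3, a Krüppel-like repressor, fell from 188 to 217 CPM to 50.9 to 53.8 CPM and 41.3 to 44.7 CPM. For that pair the ratio did not differ detectably from NT (exact permutation p = 0.583).

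GATA2-AS1 and IRF1-AS1 fell while their genes were not called. GATA2-AS1 (chr3:128489203-128503207, plus strand) was at 26.7, 23.97 and 20.3 CPM in NT, 7.54, 7.48 and 8.22 CPM with sh#16 and 7.57, 7.02 and 8.08 CPM with sh#87 (-1.61 ± 0.12 and -1.65 ± 0.12, adjusted p = 2.7e-06 and 1.6e-06). GATA2, a factor of blood stem and progenitor cells, was at 76.0, 107 and 123.4 CPM in NT, 73.8 to 81.5 CPM with sh#16 and 72.7 to 77.2 CPM with sh#87, and these groups overlapped NT (adjusted p = 0.043 and 0.023). IRF1-AS1, which RefSeq now lists as CARINH, fell from 5.94 to 6.92 CPM to 2.94 to 3.01 CPM and 1.98 to 2.28 CPM (-1.10 ± 0.12 and -1.57 ± 0.12), while IRF1, an interferon regulatory factor, stayed between 26.6 and 33.7 CPM. The exact permutation p of the ratio was 0.0119 for both pairs. FOXN3-AS1 was at 0.305 to 1.37 CPM over all libraries and its groups overlapped (adjusted p = 0.069 and 0.025), while FOXN3, a forkhead repressor, fell from 454 to 537 CPM to 184 to 195 CPM and 144 to 157 CPM.

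**Figure D4:**
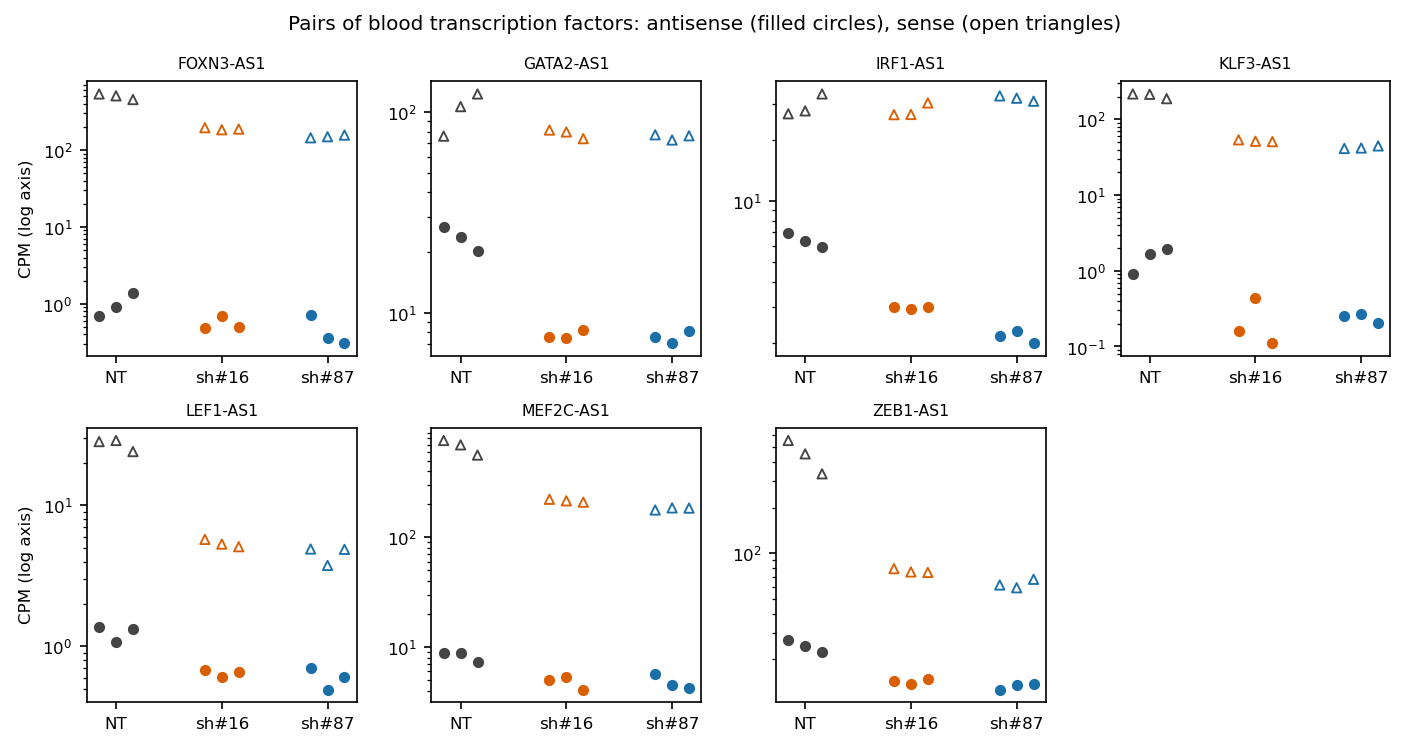
CPM (log axis) of the antisense transcripts (filled circles) and sense genes (open triangles) of 7 blood transcription factors in each of the 3 NT, 3 sh#16 and 3 sh#87 libraries. GATA2-AS1 lies at 7.02 to 8.22 CPM in all knockdown libraries, below every NT library, while the GATA2 groups overlap.

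Among 7 pairs of immune receptors and signalling genes, 5 antisense transcripts were called lower with sh#16 and 7 with sh#87, and the sense genes gave 6 and 7 lower calls, beside 30.2% and 33.6% of all genes. SOCS2-AS1 fell from 47.5, 48.4 and 36.99 CPM in NT to 6.90 to 8.58 CPM with sh#16 and 9.23 to 10.1 CPM with sh#87 (-2.46 ± 0.13 and -2.20 ± 0.13), and SOCS2, a suppressor of cytokine signalling, from 190 to 232 CPM to 62.3 to 64.9 CPM and 65.3 to 68.7 CPM. PRKCQ-AS1 fell from 28.5 to 35.7 CPM to 13.4 to 15.5 CPM and 10.4 to 12.2 CPM, and PRKCQ, a protein kinase C of T cell signalling, from 74.1 to 98.2 CPM to 30.0 to 33.5 CPM and 25.4 to 26.3 CPM. LY86-AS1 and PSMB8-AS1 overlapped NT with sh#16 and were called lower with sh#87 (-0.64 ± 0.16 and -0.84 ± 0.18, adjusted p = 0.0057 and 0.0020). LY86, a partner of a Toll-like receptor homologue, was at 5.003 to 6.19 CPM in NT and at most 0.151 CPM in the knockdown libraries, far below its antisense. The members named here and in the lists that follow were chosen after their values were seen.

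The other lists were mixed, and their counts stand beside 29.8% of all genes called higher and 30.2% lower with sh#16, and 34.3% and 33.6% with sh#87. Of 5 antisense transcripts beside cell cycle and DNA maintenance genes, 4 were called lower with sh#16, and 3 lower and 1 higher with sh#87. MCM3AP-AS1 fell from 9.74 to 14.8 CPM to 4.26 to 5.31 CPM and 2.99 to 3.86 CPM while MCM3AP, an mRNA export factor, rose from 86.7 to 121 CPM to 146 to 152 CPM and 184 to 192 CPM. Of 14 beside genes of mitochondria, metabolism and translation, 2 were called higher and 5 lower with sh#16, and 3 higher and 4 lower with sh#87. SLC25A25-AS1 rose from 4.9 to 6.004 CPM to 14.3 to 16.3 CPM and 29.9 to 33.4 CPM beside SLC25A25, a mitochondrial carrier, at 7.22 to 11.3 CPM in NT and 33.8 to 44.4 CPM in the knockdown libraries. Of 19 beside zinc finger genes, 2 were called higher and 4 lower with sh#16 and 4 and 5 with sh#87, while 2 of the genes were called higher with each and 10 and 12 lower.

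Between the shRNAs, the antisense transcripts leaned towards sh#87. Of 305, 46 were called, 40 higher and 6 lower with sh#87 than with sh#16, and 209 had a change above 0. Over all genes 17.7% were called, 8.29% higher and 9.42% lower, and the sense genes gave 18 higher and 34 lower calls of 311. The median difference was 0.24 over the antisense transcripts, -0.09 over the sense genes and -0.02 over all genes. Of the 54 antisense rows with no sense gene in the table, 8 were called higher and 1 lower with a median of 0.24, and of 124 rows ending in -DT, 11 and 2 with a median of 0.27.

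The number of calls between the shRNAs depended on single libraries. The fit shares 1 estimate of the spread over all groups, so NT libraries bear on this comparison too. It was 15, 12 and 13 without sh#16 replicates 1, 2 and 3, 25, 12 and 17 without sh#87 replicates 1, 2 and 3, and 81 without NT replicate 3, with more higher than lower calls each time (the lowest counts being 11 higher and 1 lower). Of the 40 antisense transcripts higher with sh#87, 18 were called above NT with each shRNA, 11 above NT with sh#87 alone, 8 below NT with sh#16 alone, 1 below NT with each and 2 with neither. The antisense transcripts thus differed between shRNAs in which MECOM differed by -0.43 ± 0.09 (adjusted p = 0.0066, and from 4.1e-04 to 0.030 over 17 alternatives, 10 of which lost the call).

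**Figure D5:**
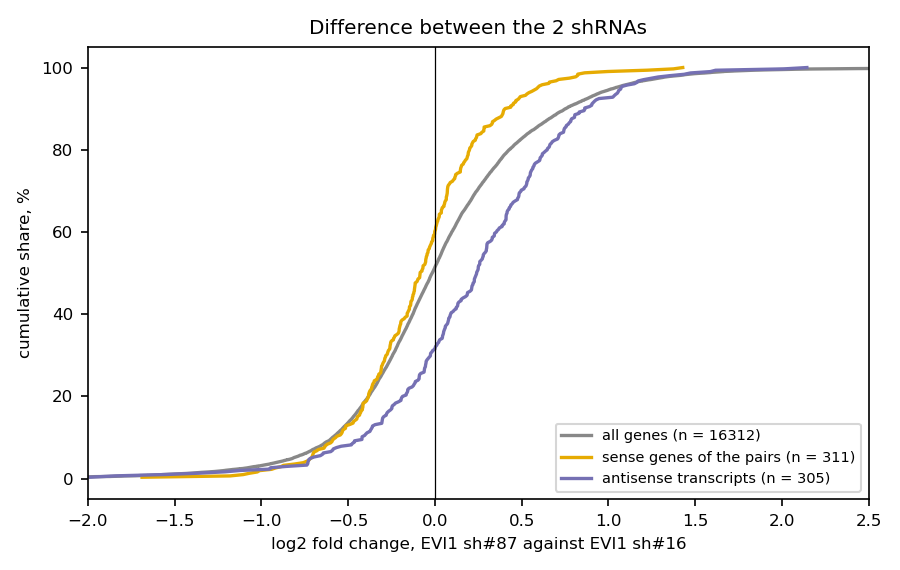
Cumulative share (vertical axis, %) of log2 fold changes between EVI1 sh#87 and EVI1 sh#16 (horizontal axis) for 305 antisense transcripts, 311 sense genes and 16312 genes tested. The curve of the antisense transcripts lies to the right of the others through its middle, with a median of 0.24 against -0.09 for the sense genes and -0.02 for all genes.

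Among the 46 antisense transcripts called between the shRNAs, the largest differences after RNF213-AS1 were in UCKL1-AS1, ACTA2-AS1 and ZNF22-AS1, all at low levels. UCKL1-AS1 had 1 to 5 counts in NT, and was at 0.274 to 0.682 CPM with sh#16 and at 1.996, 1.966 and 1.983 CPM with sh#87 (2.01 ± 0.31 between the shRNAs, adjusted p = 0.0016), while UCKL1 was not called with either shRNA. ACTA2-AS1 was at 0.303 to 0.401 CPM with sh#16, where it overlapped NT, and at 0.894 to 1.12 CPM with sh#87 (1.59 ± 0.25, adjusted p = 0.0019), while ACTA2, the smooth muscle actin, fell from 23.1 to 30.1 CPM in NT to 4.54 to 5.27 CPM and 3.53 to 3.99 CPM. ZNF22-AS1 was at 1.32 to 1.45 CPM with sh#16 and 0.374 to 0.536 CPM with sh#87 (-1.55 ± 0.34, adjusted p = 0.0089, and from 6.2e-04 to 0.039 over 17 alternatives, 10 of which lost the call). ZNF22, a zinc finger gene whose nearest annotated start lies 35 bases away, was above NT with sh#16 and below NT with sh#87, at 17.6 to 18.1 CPM and 7.98 to 8.94 CPM beside 10.2 to 11.7 CPM in NT, and its call against NT with sh#87 (adjusted p = 0.0023) was lost without sh#87 replicate 2 or 3 (0.013 and 0.012).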

How the data were processed

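RNA-seq of 9 HNT34 libraries (NT, EVI1 sh#16, EVI1 sh#87; 3 each) was analysed. Estimated counts by gene symbol were deposited by the authors as a single table, whose header names salmon; the methods name FastQC v1.3, STAR, ENSEMBL annotation and GRCh38. The strand setting is not given in the sources used here. The values were whole, and library totals ran from 17096170 to 43502389.

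Counts were normalized by TMM and filtered with filterByExpr, and all 3 groups were fitted together in R 4.3.3 with edgeR 4.0.16 (quasi-likelihood test, Benjamini-Hochberg over 16312 genes, calls at an adjusted p of at most 0.01). SE is the log2 fold change over the square root of F. Levels are TMM-scaled CPM, and ratios used log2 CPM with a prior count of 2. DESeq2 1.42.0 and limma-voom (limma 3.58.1) were alternatives, beside other normalizations, filters and thresholds, a replicate block and each library left out. Limits of detection take 3 counts in a library and allow for counting error alone.

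Named pairs were the 6 most abundant antisense transcripts, the largest changes among pairs called together, oppositely or singly, the largest differences between shRNAs, and pairs of a list of blood transcription factors. Members and lists were chosen with earlier results of these data known. Arrangements, distances and exon lengths came from GENCODE v44lift37, and coordinates and promoters from RefSeq (GRCh38.p14).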

Additional observations from a re-analysis of the deposited data

Results flagged for a closer look

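The change differed between the shRNAs, as tested in the fit of all 9 libraries, in MECOM and in 10 of the named genes. With sh#87 the level was higher than with sh#16 by 0.77 on the log2 scale in GABPB1-AS1, by 2.14 in RNF213-AS1, by 2.01 in UCKL1-AS1, by 1.59 in ACTA2-AS1, by 1.43 in ATP2A1 and by 0.38 in EXOC3. It was lower, with a log2 difference of -0.43 in MECOM, -0.76 in GABPB1, -1.55 in ZNF22-AS1, -1.10 in ZNF22 and -0.33 in FOXN3. Over 17 alternatives, the call was lost in 11 for FOXN3, in 10 each for MECOM and ZNF22-AS1, in 8 for EXOC3, in 5 for ATP2A1, in 4 for ACTA2-AS1 and in 1 each for UCKL1-AS1 and GABPB1. Those of RNF213-AS1, GABPB1-AS1 and ZNF22 held in all 17.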

How the results depend on the processing

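The numbers of antisense transcripts and pairs called against NT stayed within 1.5 times under other normalizations, filters, DESeq2 and limma-voom and with each library left out. With a library left out they ran from 144 to 178 and from 160 to 196 antisense transcripts with sh#16 and sh#87, from 55 to 91 and from 63 to 97 pairs called in 1 direction, and from 34 to 50 and from 42 to 62 in opposite directions, and calls between the shRNAs ran from 12 to 81. At an adjusted p of at most 0.05, opposite pairs with sh#16 numbered 65 and calls between the shRNAs 92. With a change of at least 1 also required, pairs in 1 direction numbered 34 and 41, opposite pairs 12 and 20, and calls between the shRNAs 15. With at least 2, antisense calls numbered 49 and 59, pairs in 1 direction 5 and 10, opposite pairs 1 and 3, and calls between the shRNAs 2, since fewer genes pass a stricter threshold. The replicate numbers did not pair the libraries (correlations of same-numbered deviations from -0.137 to 0.0826), and with a replicate block the calls between the shRNAs numbered 25. DESeq2 gave 63. Of the 13 ratios tested, 10 to 11 had an exact p, unadjusted over the pairs, of at most 0.05 with any 1 library left out. Upper-quartile normalization shifted the changes of all genes by a median of 0.10 with sh#16 and 0.12 with sh#87, and the median over the antisense transcripts was then -0.14 and 0.19. No call of a named gene reversed. Signs turned only where neither fit made a call: under upper-quartile normalization in PSMA3 with sh#87 (0.0722) and, with sh#16, in RNF213 (0.0907), UCKL1 (0.012) and IRF1 (0.0244), and under RLE (-0.00957) and DESeq2 (-0.00538) in L3MBTL2 with sh#16. With single libraries left out, the change with sh#16 ran from -0.172 to 0.133 in L3MBTL2, -0.0698 to 0.00675 in RNF213, -0.318 to 0.0342 in UCKL1 and -0.162 to 0.000217 in IRF1, and that with sh#87 from -0.0797 to 0.225 in L3MBTL2, -0.0244 to 0.0521 in RNF213, -0.114 to 0.0653 in PSMA3, -0.0737 to 0.598 in TSPOAP1, -0.0279 to 0.0946 in MYLK-AS1 and -0.0474 to 0.119 in GABPB1-AS1. For the other changes the cause was not tested. Depth limits the antisense transcripts under 1 CPM, for which a library held few counts.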
